A study of Mus musculus with 8 samples.

Results

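The genes described are the chains of the major histocompatibility complex (MHC) class I molecule and the proteins that load peptide onto it: H2-K1, H2-D1, H2-T23, B2m, Tap1, Tap2, Tapbp, Pdia3, Calr and Canx. They were chosen by name, and every probe set whose only gene symbol in the platform annotation is one of these was used. This gave 30 of 34945 single-symbol probe sets and 9 of the 10 genes. H2-T23 has no probe set of its own, since both probe sets that list it also list another gene. The arrays compare 4T1.2 primary tumours of the mammary gland with matched spine metastases, 4 of each, from 4 Balb/c mice. 4T1.2 is a transplantable mouse mammary carcinoma line that spreads to bone without being placed there. Both groups carry this line and come from different sites of growth. They also differed in the quality of control transcripts and in markers of other cell types, as given below. The labels call the samples tumour epithelial cells isolated from each site; no treatment, genotype or age, and no sort or gate, is given in the sources used here. RNA went through a labelling with 2 rounds of amplification. The deposited values are log2 signals after RMA, which corrects background, is meant to make the arrays' distributions alike and gives 1 value for each probe set. The deposited distributions were not fully alike, since scaling the arrays to their 75th percentile moved the median log2 fold of all probe sets from 0.09 to 0.29.

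A class I molecule shows peptides from inside a cell to CD8 T cells. Its heavy chain (H2-K1 or H2-D1 here) pairs with the light chain beta-2-microglobulin (B2m) in the endoplasmic reticulum. Canx, calnexin, is a lectin chaperone that holds the new heavy chain. The transporter made of Tap1 and Tap2 pumps peptides in from the cytosol. Tapbp (tapasin), Pdia3 (the disulfide isomerase ERp57) and Calr (calreticulin) form the peptide-loading complex with it. Nearly all nucleated cells carry class I, and interferons raise many of its genes, whereas Pdia3, Calr and Canx also fold many other glycoproteins.

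The promoters of these genes hold different control motifs, and those of the heavy chains, of the light chain and of both lectin chaperones are shown because the signals of these genes are set against each other below. Sequences are from RefSeq, build GRCm38.p6, a C57BL/6J assembly and not the Balb/c genome, and all 9 members other than Tap2 have an entry in the promoter table. Each entry runs from 250 bases before to 50 bases after a gene's start, and each is printed 5′ to 3′ on the gene's strand with motif matches in capitals. In H2-D1 (chr17:35262908-35263060, plus strand, positions -186 to -34 from the start) the capitals mark an NF-kappaB type motif (GGG, any 2 bases, TTCCC), TTTCACTTC (the reverse complement of the interferon response motif GAAGTGAAA), TGACGC (CRE-like) and a CCAAT box in each orientation. In H2-K1 only the 30 bases from the first of these motifs to the second are printed (chr17:34000429-34000458, minus strand). They lie before both starts listed for that gene but inside the span that the gene table gives it. In B2m (chr2:122147533-122147653, plus strand) the capitals mark the interferon-stimulated response element (GAAA, any 2 bases, GAAA) and a reverse CCAAT box. In Canx (chr11:50325785-50325833, minus strand) and Calr (chr8:84847060-84847108, minus strand) they mark the endoplasmic reticulum stress element (CCAAT, any 9 bases, CCACG), which lies in reverse in Calr.
H2-D1: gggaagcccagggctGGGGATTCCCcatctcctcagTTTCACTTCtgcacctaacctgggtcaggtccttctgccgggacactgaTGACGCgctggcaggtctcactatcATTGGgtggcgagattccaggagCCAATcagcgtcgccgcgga
H2-K1: GGGGATTCCCcatctccacagTTTCACTTC
B2m: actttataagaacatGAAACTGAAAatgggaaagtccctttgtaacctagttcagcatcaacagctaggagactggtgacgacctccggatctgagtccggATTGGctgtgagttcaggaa
Canx: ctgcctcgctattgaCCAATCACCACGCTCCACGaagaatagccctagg
Calr: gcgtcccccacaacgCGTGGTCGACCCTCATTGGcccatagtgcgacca

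The 30 bases of H2-K1 match those of H2-D1 at 29 positions. Both strands of all 32851 promoter entries were searched. The NF-kappaB type motif was found in 1.75% of them and in 2 members, H2-K1 and H2-D1. GAAGTGAAA, a motif chosen after the sequences were seen, was in 0.505% and in the same 2 members. The interferon-stimulated response element was in 3.44% of entries and in B2m and H2-T23. The stress element was in 0.119% and in Calr and Canx. It contains a CCAAT box, a motif found in 37.4% of entries and in all 9 members that have an entry. TGACGC was in 7.40% of entries and in H2-K1, H2-D1 and Pdia3, and the STAT-type motif TTCNNNGAA was in 8.30% and in 0 of the members. These matches describe the sequence only.

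Some arrays stood apart. Actin has control probe sets at both ends of its transcript, and the loss of log2 signal at the 5′ end, a sign of RNA or amplification quality, was larger in metastases. It was 1.49 ± 0.44 on primary arrays and 5.33 ± 0.76 on metastasis arrays, and for Gapdh it was 2.15 ± 0.48 and 5.22 ± 0.71 (SD, n = 4 each). Neither overlapped between the groups (exact permutation test, two-sided, p = 0.0286, the smallest 4 against 4 arrays allow, also after adjustment over both controls). Of 11 epithelial markers 2 were lower, Krt19 and Cldn4, with a mean log2 signal from 7.98 to 8.78 on primary arrays and from 6.26 to 8.01 on metastasis arrays. They differed in which metastases were low. Keratin 8 (Krt8), which was not called, lay between 13.07 and 13.32 in primary tumours, at 12.39 and 12.97 in metastases 2 and 4, and at 7.34 and 9.80 in metastases 1 and 3. Epcam read 8.34, 8.45, 8.65 and 9.35 in metastases 1 to 4, and Cdh1 was lowest in metastasis 4 (5.74). Of 12 macrophage markers 10 were lower in metastases, and their mean log2 signal ranged from 11.39 to 12.30 on primary arrays and from 8.40 to 10.26 on metastasis arrays. Granulocyte markers (6 of 8 higher, mean 6.42 to 7.01 against 10.09 to 10.71), B lineage markers (6 of 8 higher, 4.85 to 5.25 against 7.47 to 10.97) and nerve markers (7 of 7 higher, 4.79 to 4.86 against 8.57 to 10.13) moved up. Of 5 osteoblast and cartilage markers 3 were higher, and of 10 T and natural killer cell markers 1 was higher. Of 7 fibroblast markers 1 was lower and 1 higher, and of 6 endothelial and 4 erythroid markers 0 were called. Each marker was read on its brightest probe set, where 12.0% of all genes were lower and 9.93% higher by the limma fit used below. Markers of other cell types were thus measured in samples labelled as epithelial. The class I level of each such cell type was not measured here, and the part of cell make-up or RNA quality in the results below was not tested. In such bulk samples fewer cells of a type and less RNA per cell cannot be told apart.

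Class I heavy chain signals were lower in bone metastasis, and the rest of the pathway was uneven. Of the 30 probe sets, 15 were lower and 0 higher by limma (Benjamini-Hochberg adjusted p under 0.05 over all 34945 probe sets). At an unadjusted p under 0.05, 2 of the 30 were higher, both dim probe sets of Tap1. In either direction 23 of the 30 and 12235 of all 34945 probe sets passed that unadjusted limit. At the adjusted threshold 11.9% of all probe sets were called lower and 8.72% higher. The 15 calls lay in 5 genes: 4 of 4 probe sets of H2-K1, 8 of 9 of H2-D1, 1 of 2 of B2m, 1 of 2 of Pdia3 and 1 of 3 of Canx. Tap1, Tap2, Tapbp and Calr had no call. The median log2 fold (metastasis minus primary) over the 30 was -1.31, beside 0.09 over all probe sets and -0.19 over the 17472 brightest of them, which hold 25 of the 30. In a separate fit of those brightest alone, 23.2% of them and 17 of the 25 were called lower. Many of the probe sets measure H2-K1 and H2-D1, which are near-copies of each other, so they are not 30 separate measurements. Interferon-regulated genes were what the study followed in these mice, so the counts are not independent evidence of a direction. Of the 30, 16 had every metastasis array below every primary array, as had 14.0% of all probe sets. Only 1, the dim Tap1 probe set 1449803_x_at, had every metastasis array above, as had 14.3% of all. The 16 include all 15 called ones, which were picked on the same arrays. In 4 of 4 mice the metastasis was lower than the primary tumour for 19 of the 30, as for 20.1% of all probe sets. The count fell to 10 without metastases 1 and 3, to 3 without mouse 3 (H2-K1 1427746_x_at and 1450534_x_at, and Pdia3 1423423_at), and to 5 without mouse 4 (these 3, H2-K1 1425336_x_at and Canx 1422845_at). The share of all probe sets called lower fell as well, to 8.06%, 3.68% and 5.4% in these 3 settings. With the 17472 brightest probe sets tested alone, Tap2 1453913_a_at, Tapbp 1421812_at and Canx 1428935_at also passed as lower (adjusted p = 0.0386, 0.0482 and 0.0360). With the actin drop as a covariate, nearly tied to the group (the groups do not overlap), 0 of the 30 were called, the median turned to 0.93, and limma called 0 probe sets of the whole array (4552 of all and 4 of the 30 at an unadjusted p under 0.05).

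**Figure D1:**
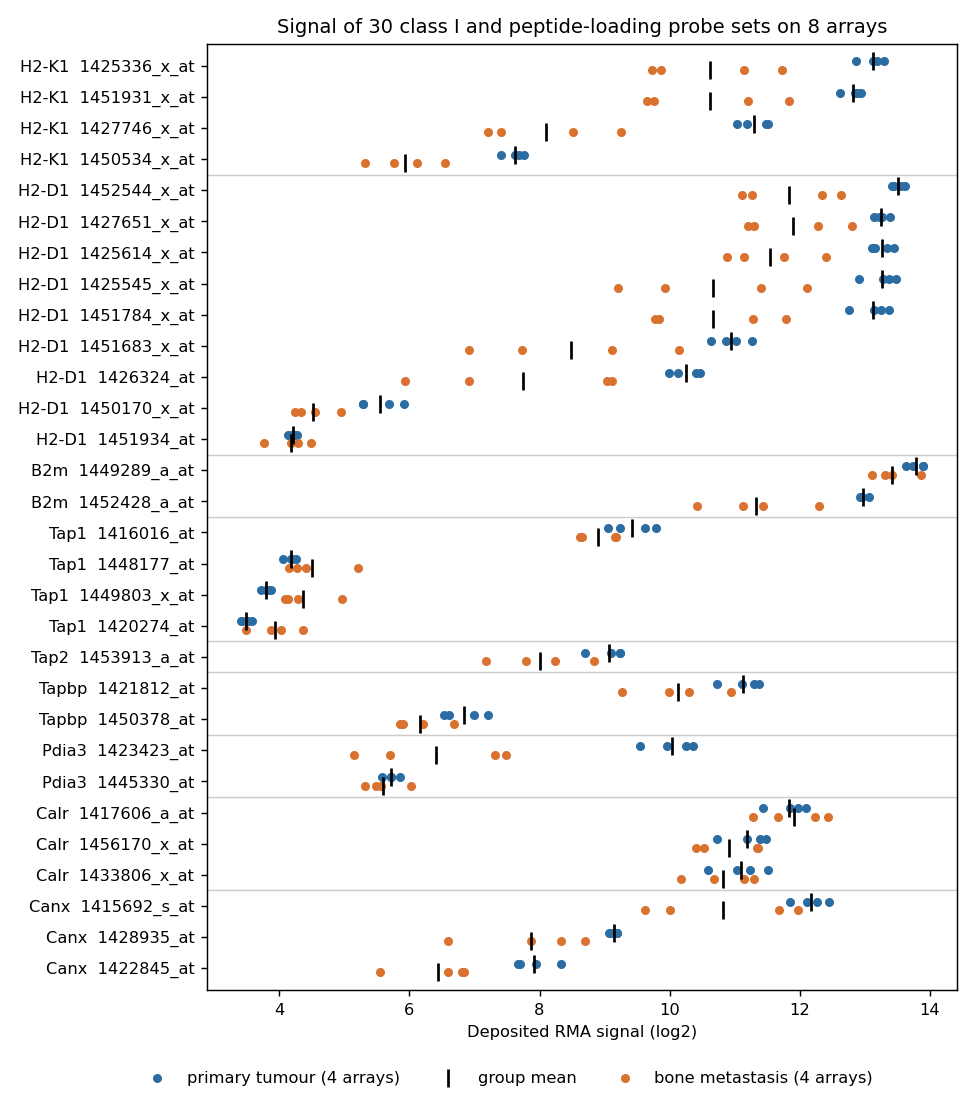
Deposited log2 signal (x axis) of each of the 30 probe sets (rows, grouped by gene) on the 4 primary arrays (blue) and the 4 metastasis arrays (orange), with group means as black bars. The groups are apart for all 4 rows of H2-K1 and 8 of 9 of H2-D1, and overlap for all 3 rows of Calr.

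H2-K1, the heavy chain of the K locus (chromosome 17, 33996012 to 34000619), fell on every one of its 4 probe sets. The brightest, 1425336_x_at, had log2 signals of 13.13, 12.86, 13.18 and 13.30 on primary arrays 1 to 4 and of 11.15, 11.73, 9.87 and 9.73 on metastasis arrays 1 to 4. All metastases lay below all primary tumours, and metastases 3 and 4 were lowest. The fold was -2.50 (SE 0.43), a 5.66-fold fall (limma adjusted p = 0.00594). Probe set 1427746_x_at fell further, from 11.30 ± 0.23 to 8.10 ± 0.96 (SD, n = 4 each), a log2 fold of -3.20 (SE 0.43, adjusted p = 0.00219). The smallest fall, -1.68 (SE 0.25, adjusted p = 0.00341), was that of 1450534_x_at, the dimmest of the 4, and 1451931_x_at gave -2.21 (SE 0.47, adjusted p = 0.0132). Without mouse 3 the calls of 1425336_x_at (-2.23, adjusted p = 0.0536) and 1451931_x_at (-1.87, adjusted p = 0.0841) were lost, and without mouse 4 that of 1451931_x_at (-1.88, adjusted p = 0.0808).

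H2-D1, the heavy chain of the D locus (chromosome 17, 35263094 to 35267497), was lower on 8 of 9 probe sets, with folds from -2.60 to -1.03 among the calls. The -1.03 is that of 1450170_x_at, which was dim in both groups (means 5.55 and 4.52), and the other 7 lay between -2.60 and -1.35. Its brightest, 1452544_x_at, read 13.42, 13.44, 13.62 and 13.55 in primary tumours and 12.35, 12.63, 11.12 and 11.27 in metastases. The groups did not overlap, and metastases 1 and 2 lay closer to the primary level than metastases 3 and 4. The fold was -1.67 (SE 0.34, adjusted p = 0.0110). The largest fall was on 1425545_x_at, from 13.26 ± 0.25 to 10.66 ± 1.33 (SD, n = 4 each), a fold of -2.60 (SE 0.58, adjusted p = 0.0158). The ninth, 1451934_at, was dim in both groups (4.21 ± 0.06 and 4.18 ± 0.30, SD, n = 4 each) and gave -0.03 (SE 0.17). The calls of 1427651_x_at and 1451683_x_at were lost without any single primary array, metastasis 3 or mouse 1, that of 1427651_x_at also without metastasis 4, that of 1425545_x_at without primary tumour 4, and that of 1450170_x_at without mouse 1. All 8 calls were lost without mouse 3 and all 8 without mouse 4. For 1452544_x_at the values were then -1.39 (adjusted p = 0.0730) and -1.46 (adjusted p = 0.0700).

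Probes shared between these genes limit how far they can be told apart. The ending x_at marks a probe set with probes that also match other transcripts, and all 4 of H2-K1 and 7 of the 9 of H2-D1 have it. Of those without it, 1426324_at of H2-D1 read 10.13, 9.99, 10.46 and 10.41 in primary tumours and 9.12, 9.04, 6.92 and 5.93 in metastases. Its fall, -2.49 (SE 0.68, adjusted p = 0.0338), lay within the range of the x_at probe sets, but it had the widest spread among metastases and no call with the mouse as a block (adjusted p = 0.0541). The call of 1426324_at was also lost without any single primary array (adjusted p from 0.0701 to 0.0893) and without metastasis 3 (0.0869). Balb/c mice carry the d haplotype of this locus, and whether each probe matches its alleles was not tested.

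B2m, the light chain shared by all class I molecules (chromosome 2, 122147687 to 122153082), split between its probe sets. The brighter, 1449289_a_at, read 13.90, 13.74, 13.63 and 13.89 in primary tumours and 13.42, 13.86, 13.11 and 13.30 in metastases. Metastasis 2 lay within the primary range and the others below it, for a fold of -0.37 (SE 0.18, adjusted p = 0.181). Without metastasis 2 that fold was -0.51 and passed the threshold (adjusted p = 0.0406). The other probe set, 1452428_a_at, read 12.93, 12.92, 12.96 and 13.07 in primary tumours and 11.43, 12.29, 10.42 and 11.13 in metastases, with no overlap. It fell by 1.65 on the log2 scale (SE 0.34, adjusted p = 0.0121), a call lost without mouse 3 (-1.36, adjusted p = 0.0556) and without mouse 4 (-1.56, adjusted p = 0.0831). So the size of the B2m difference rests on the probe set.

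**Figure D2:**
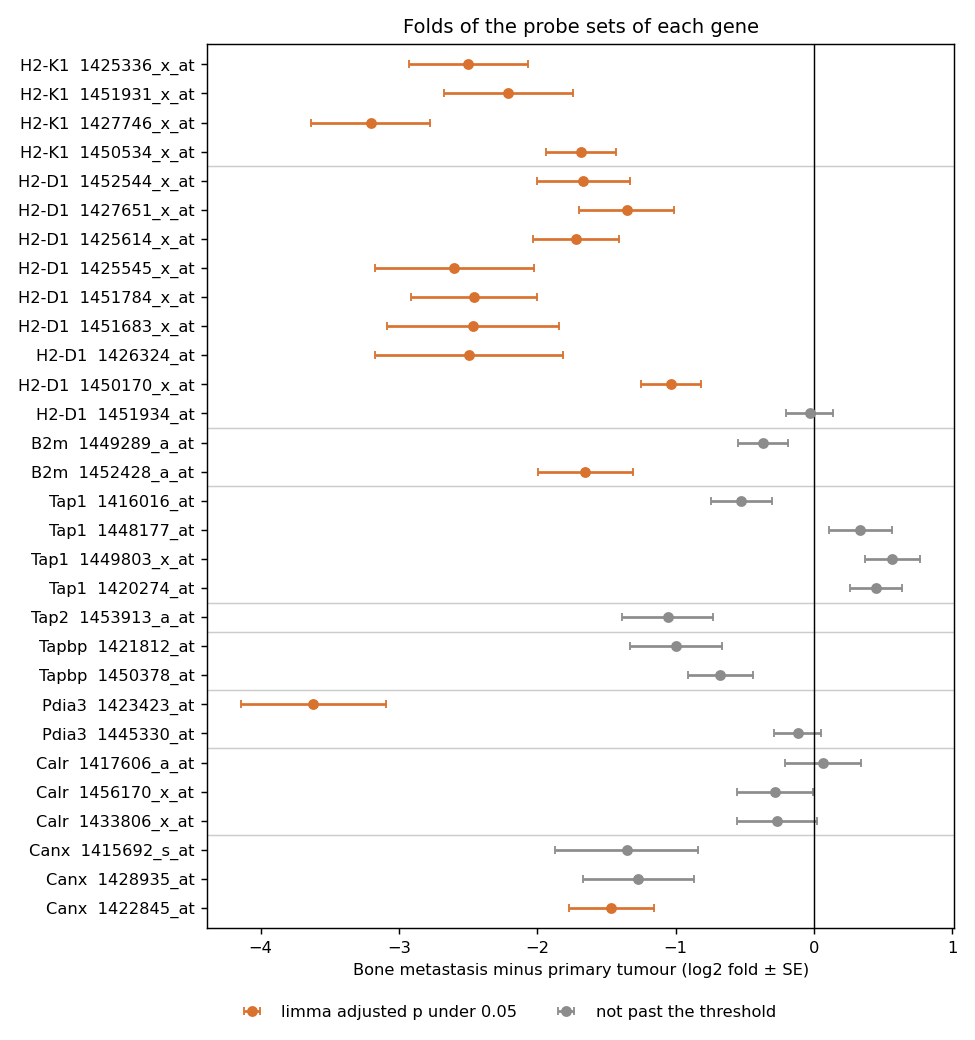
Log2 fold with its SE, metastasis minus primary, for each probe set (rows, grouped by gene). Orange marks the 15 with a limma adjusted p under 0.05, and B2m, Pdia3 and Canx each hold both kinds.

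The disagreement within a gene was itself tested, on pairs picked by brightness after the values were seen. For each of the 8 genes with more than 1 probe set, the difference between the brightest and the next was formed on every array, and 6 pairs of different members were added, 14 exact permutation tests in all (two-sided, adjusted over the 14). For B2m the 2 folds differed by 1.28 (SE 0.24, exact p = 0.0286, adjusted p = 0.04), with the same sign in 4 of 4 mice. For Pdia3 the brighter minus the other was -3.50 (SE 0.75), with the same exact p-values. That other probe set read close to the median signal of the arrays in both groups (means 5.72 and 5.60). The difference is therefore nearly the fall of the brighter alone (-3.62), and does not show that 2 well-measured probe sets disagree. For H2-D1 (-0.31, SE 0.07) and Calr (0.35, SE 0.07) the differences were smaller, with the same exact p = 0.0286 and adjusted p = 0.04. The exact p was 0.0571 for H2-K1 (-0.29, SE 0.13), 0.0857 for Tap1 (-0.86, SE 0.40), 0.571 for Tapbp (-0.32, SE 0.50) and 0.914 for Canx (-0.08, SE 0.43), none past the threshold. Between members, the brightest probe set of H2-K1 fell further than that of B2m by -2.13 (SE 0.37) and further than that of H2-D1 by -0.83 (SE 0.15), and H2-D1 fell further than B2m by -1.30 (SE 0.27). By the exact permutation test over arrays, which does not use the pairing by mouse, each of these 3 had p = 0.0286 (adjusted p = 0.04). The 0.0286 is the smallest p that 4 against 4 arrays allow. Each of the 3 had the same sign in 4 of 4 mice. They hold for these probe sets and not for the genes as a whole. The B2m probe set used was brighter than 99.9% of all probe sets, and whether the array limits such bright signals was not tested. The other B2m probe set had a fold of -1.65, close to the -1.67 of H2-D1. Likewise 4 probe sets of H2-D1 had folds from -2.60 to -2.46, near the -2.50 of H2-K1, and 1450534_x_at of H2-K1 had -1.68.

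The transporter genes, Tap1 (chromosome 17, 34187556 to 34197225) and Tap2 (34204479 to 34216321), had no call. Tap1 on its bright probe set 1416016_at read 9.62, 9.05, 9.79 and 9.24 in primary tumours and 9.15, 9.18, 8.65 and 8.62 in metastases. Metastases 1 and 2 lay within the primary range, and the fold was -0.53 (SE 0.22, adjusted p = 0.128). Its other 3 probe sets were dim, with primary means from 3.49 to 4.17, and gave 0.33, 0.57 and 0.45. Such dim probe sets, under the median signal of the arrays, give no direction for the gene. One of them, 1420274_at, passed the threshold upward without metastasis 1 (0.60, adjusted p = 0.0311).

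Tap2 has 1 probe set, 1453913_a_at, which read 9.10, 8.70, 9.23 and 9.24 in primary tumours and 8.83, 8.24, 7.18 and 7.80 in metastases. Metastasis 1 lay within the primary range and the others below it. The fold was -1.06 (SE 0.33), lower in 4 of 4 mice and just outside the threshold (adjusted p = 0.0538). It passed without metastasis 1 (-1.33, adjusted p = 0.0134) and without mouse 1 (-1.32, adjusted p = 0.0350).

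Tapbp, the tapasin gene that bridges the transporter and the empty heavy chain (chromosome 17, 33919478 to 33929290), was not called on either probe set. The brighter, 1421812_at, read 11.29, 10.72, 11.11 and 11.37 in primary tumours and 10.30, 10.94, 9.27 and 9.995 in metastases. Metastasis 2 lay within the primary range, and the fold was -0.997 (SE 0.33, adjusted p = 0.0662). Without metastasis 2 the brighter probe set passed (-1.27, adjusted p = 0.0151), as it did without mouse 2 (-1.40, adjusted p = 0.0227). The other, 1450378_at, gave -0.68 (SE 0.23, adjusted p = 0.0749), and passed without metastasis 4 (-0.85, adjusted p = 0.0264).

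Pdia3, the isomerase of the loading complex (chromosome 2, 121413902 to 121438687), had the largest fall of the 30. On 1423423_at it read 9.54, 9.95, 10.26 and 10.36 in primary tumours and 7.48, 7.31, 5.70 and 5.14 in metastases. The groups were far apart, and metastases 3 and 4 were lowest. The fold was -3.62 (SE 0.52, adjusted p = 0.00300), and stayed past the threshold without each array or mouse in turn. Metastasis 4 lay under the metastasis arrays' medians (5.55 to 5.63) and metastasis 3 close to them, so the size of this fall is not exact. The second probe set, 1445330_at, read 5.72 ± 0.11 and 5.60 ± 0.30 (SD, n = 4 each), overlapped between the groups and gave -0.12 (SE 0.17). Both of its means were close to the arrays' medians, so it gives no direction for the gene.

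Calr, the calreticulin gene (chromosome 8, 84842088 to 84846931), showed no difference past the threshold on 3 probe sets. The brightest, 1417606_a_at, read 11.85, 12.10, 11.43 and 11.97 in primary tumours and 12.43, 12.23, 11.28 and 11.66 in metastases. The groups overlapped, metastases 1 and 2 being the highest arrays of all. The fold was 0.07 (SE 0.27, adjusted p = 0.882), and it turned to -0.11 without metastasis 1 or mouse 1, -0.04 without metastasis 2 and -0.07 without primary tumour 3. The others gave -0.28 (SE 0.28) and -0.27 (SE 0.29).

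Canx, the calnexin gene (chromosome 11, 50293957 to 50325673), had folds of similar size on 3 probe sets and 1 call. The brightest, 1415692_s_at, read 12.27, 12.11, 11.85 and 12.45 in primary tumours and 11.96, 11.68, 10.01 and 9.62 in metastases. Metastases 1 and 2 lay close to or within the primary range, and metastases 3 and 4 well below it. The fold was -1.35 (SE 0.52, adjusted p = 0.0989). Without metastasis 1 it was -1.74 and passed (adjusted p = 0.0331). The dimmest, 1422845_at, read 7.66, 7.95, 7.69 and 8.33 in primary tumours and 6.83, 6.81, 6.59 and 5.54 in metastases, without overlap. It was called, with a fold of -1.46 (SE 0.31, adjusted p = 0.0126), but not without mouse 3 (-1.59, adjusted p = 0.0684). The third, 1428935_at, gave -1.27 (SE 0.40, adjusted p = 0.0552), and passed without metastases 1, 2 or 3 (adjusted p = 0.0495, 0.0223 and 0.0317).

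The folds of the 3 chaperones differed on their brightest probe sets. There Pdia3 fell further than Calr by -3.68 (SE 0.46) and further than Canx by -2.27 (SE 0.24), and Canx lay below Calr by -1.42 (SE 0.38). Each difference had the same sign in 4 of 4 mice. The exact permutation test over arrays, which does not use the pairing by mouse, gave p = 0.0286 (adjusted p = 0.04) for each. The place of Pdia3 turned with the probe set, since its other one (-0.12) lay above both other Calr probe sets (-0.28 and -0.27) and all 3 of Canx. That other one, 1445330_at, read close to the median signal of the arrays in both groups (means 5.72 and 5.60). It thus gives no direction for the gene. Calr and Canx are the pair whose promoters, printed above, both hold the stress element.

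The size of the falls varied between mice. Within mice 1 to 4 the metastasis minus the primary tumour was -1.98, -1.13, -3.31 and -3.57 for H2-K1, -1.08, -0.81, -2.50 and -2.28 for H2-D1 and -2.06, -2.64, -4.56 and -5.22 for Pdia3, each on the brightest probe set. For Canx it was -0.30, -0.44, -1.84 and -2.84. Mice 3 and 4 were both further down than mice 1 and 2 for 21 of the 30 probe sets and for 12 of the 15 called, as for 22.7% of all probe sets. The extra actin drop of the metastasis over the primary tumour was 2.95, 2.71, 4.58 and 5.11 in the same mice, and that of Gapdh 2.06, 2.14, 4.53 and 3.54. Mice 3 and 4 thus had larger control drops and larger falls of these 4 genes than mice 1 and 2. The order within these pairs of mice did not always match. Mouse 1 had a larger actin drop than mouse 2 but smaller falls of Pdia3 and Canx. Krt8 and Krt18 were lowest in metastases 1 and 3. The part of the control drop in the falls was not tested beyond the covariate fit above.

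**Figure D3:**
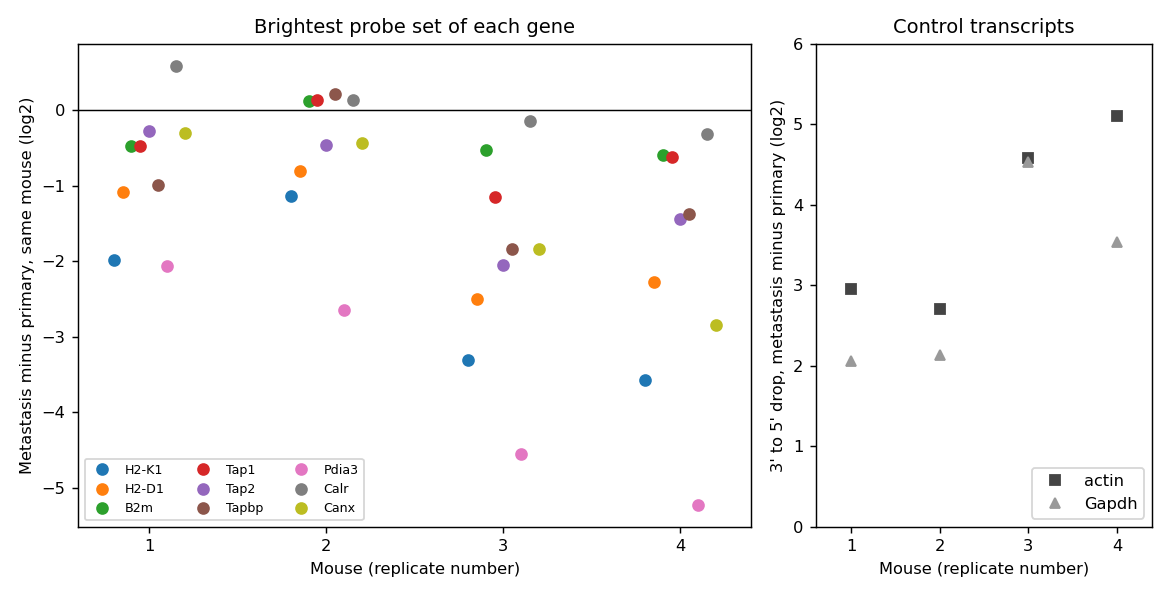
Left, the log2 difference of metastasis and primary tumour within each mouse (x axis, replicate number, points shifted sideways for clarity) for the brightest probe set of each of 9 genes. Right, the same difference for the 3′ to 5′ drop of actin and Gapdh: mice 3 and 4 have the larger control drops (3.54 to 5.11) and the larger falls of H2-K1, H2-D1, Pdia3 and Canx.

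Other genes of the class I pathway were counted on the brightest probe set of each gene, where 12.0% of 18193 genes were lower and 9.93% higher. Of 19 measured genes, mostly of processing and of other class I chains, 8 were lower and 0 higher (also 0 higher at an unadjusted p under 0.05), with a median fold of -0.74. The 19 include Nlrc5, a transactivator that is also counted among the regulators below. Fcgrt, the class I-like Fc receptor that pairs with B2m, fell by 2.83 on the log2 scale (SE 0.34, limma adjusted p = 0.00156). H2-M3, a class I chain that presents formylated peptides, had a fold of -2.31 (SE 0.42), and Psmb8, an immunoproteasome subunit, one of -2.17 (SE 0.49). A dim second probe set of Psmb8 gave 0.18 (SE 0.26). The class I-like chain Hfe was lower too (-1.80, SE 0.39). The chains H2-Q2, H2-Q10, H2-T3, H2-T24, H2-Bl, H2-M10.1, Cd1d1 and Mr1 had no call on their brightest probe sets. Their folds ran from -0.33 (Mr1) to 0.42 (H2-T3), and H2-Q2, H2-Q10 and H2-T24 were dim in both groups. Another probe set of Mr1 was called. The count of lower genes in this list ranged from 2 to 9 when single arrays or mice were left out, and it was 2 without mouse 4, 4 without mouse 3 or primary tumour 4 and 5 without primary tumour 3. Without metastasis 1, 1 gene of it was higher.

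Of 18 measured regulators of class I, 6 were lower and 1 higher, with a median of -0.54. Jak1, a kinase of the interferon receptors, had a fold of -2.34 (SE 0.67, limma adjusted p = 0.0408) on its brightest probe set but -1.56 and 1.23, both without a call, on its other 2. Ifnar2, a chain of the type I interferon receptor, gave -1.44 (SE 0.41) and, on another probe set, -1.24, both called, while the last gave 0.62 without a call. Ifngr1, the ligand-binding chain of the interferon gamma receptor, fell by 1.22 (SE 0.19). Irf2, a factor that binds interferon response elements, rose by 0.83 (SE 0.22). Nlrc5, the transactivator of class I genes, read 8.68 ± 0.34 in primary tumours and 7.94 ± 0.69 in metastases (SD, n = 4 each), and its fold of -0.74 (SE 0.34) did not pass (adjusted p = 0.160). The count of lower regulators was 3 with the mouse as a block, 3 without mouse 1 or primary tumour 1, and 2 without mouse 3, mouse 4, primary tumour 2, 3 or 4, metastasis 3, or metastases 1 and 3 together. Irf2 was not called higher after quantile normalization or without mouse 1, 2 or 3, any single primary tumour, metastasis 2 or 3, or metastases 1 and 3 together.

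Of 23 other folding genes of the endoplasmic reticulum, 6 were lower and 2 higher, with a median of -0.63. Ero1a, the oxidase that recharges disulfide isomerases, had a fold of -2.41 (SE 0.47), and of -2.73 and -3.01 on its other probe sets, all called. The isomerases Pdia6 and P4hb had folds of -2.27 (SE 0.45) and -2.17 (SE 0.44). A dim probe set of Pdia6 gave 0.13 (SE 0.18). Creld2 and Hyou1, genes induced by endoplasmic reticulum stress, rose by 1.22 (SE 0.22) and 1.17 (SE 0.17), but other probe sets of Hyou1 gave -0.04 and -0.13. Of these 23 genes, 7 had a probe set with a different call, and the count of lower genes was 1 without mouse 3 and 2 without mouse 4. The count of higher genes was 4 with 75th percentile scaling and without mouse 1.

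Of 10 MHC class II genes, which present peptides to CD4 T cells and are not chains of class I, 3 were lower and 2 higher. H2-Eb1, H2-Ab1 and Cd74 had folds of -1.35 (SE 0.37), -1.11 (SE 0.25) and -1.05 (SE 0.27), and H2-Ob and H2-DMb2 rose, with folds of 3.96 (SE 0.62) and 2.02 (SE 0.36), the latter with -0.11 and no call on 1 of its 3 probe sets. H2-Ob was dim in primary tumours (mean 5.17), so its fold is not exact. H2-Ab1 gave -3.08 and -3.71 on its other probe sets. At most 1 class II gene was lower without mouse 1, 3 or 4, any single primary tumour, metastasis 1 or 3, or metastases 1 and 3 together, and 5 were lower without metastasis 2 or mouse 2. Without mouse 3, 1 class II gene was higher.

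**Figure D4:**
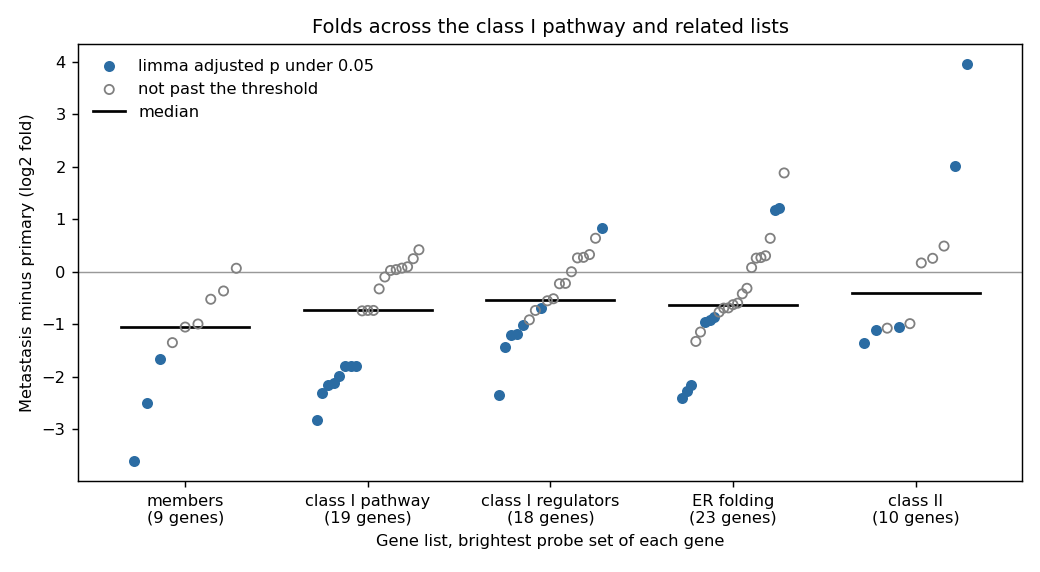
Log2 fold of each measured gene on its brightest probe set (y axis), for the 9 members and 4 related lists (x axis). Filled points passed a limma adjusted p under 0.05 and black lines are medians, which run from -1.06 for the members to -0.41 for class II.

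The genes whose values over the 8 arrays were most like those of a member were found by the root mean square difference after subtracting each gene's primary mean. For H2-K1 they were Katna1 (0.16 on the log2 scale), Irgm1 (0.18) and Pno1 (0.19). For H2-D1 they were Mier1 (0.09), Arhgap1 (0.09) and Tax1bp1 (0.13). For Pdia3 they were Eif3m (0.27), Dld (0.32) and Psmb7 (0.36), and for Calr they were Eif3k (0.12), Aff1 (0.13) and Rock1 (0.14). The nearest to B2m on its brightest probe set was Phf10 (0.10), to Tap1 Zfp746 (0.14), to Tap2 Sf3b3 (0.17), to Tapbp Dennd5a (0.13) and to Canx Emc2 (0.14). The 3 nearest to each member made 27 entries, not all of them named here. None of the 27 is another of the members, and 1, H2-DMa (0.15 from Tapbp), is a gene of the lists above.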

How the data were processed

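Each of the 8 tumour samples was hybridised to 1 one-colour array. Per the submitters' processing notes the authors used RMA, and the deposited table holds its log2 signals; its version and later steps are not given in the sources used here. Scanner files were not used here. Of 45101 probe sets, 64 controls, 932 with several gene symbols and 9160 with none were left out, and 34945 (18193 genes) were tested, without a filter on dim probe sets. The fit of metastasis minus primary used limma 3.58.1 (R 4.3.3; lmFit, eBayes, two-sided), with Benjamini-Hochberg adjustment over all tested probe sets, a threshold of 0.05 and no block. Replicate numbers pair tumours of 1 mouse, per the series' design text. Deviations of same-numbered arrays from their group means correlated at 0.16, -9.18e-06, 0.03 and -0.10 across probe sets. The brightest probe set of a gene is that with the highest mean over 8 arrays. Single measures were compared by exact permutation tests (Python 3.11.15). The script was tested on simulated data. The members, lists and tests were chosen with earlier results of these data known. Genes named are all members, the 3 largest called folds per list and direction, and genes near a member. Of the latter, the 3 nearest are named for H2-K1, H2-D1, Pdia3 and Calr, and the nearest alone for the other members. Nlrc5, H2-DMa, further class I chains and the single epithelial markers were added after their values were seen. Alternatives were other scalings, a dim filter, the block, left-out arrays and mice, the actin drop as covariate, and other choices of probe set and variance prior.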

Additional observations from a re-analysis of the deposited data

How the results depend on the processing

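Within groups, none of the 60 sets of 4 arrays held a single array far from the rest by Dixon's test. The count of 15 lower probe sets stayed at 15 with 75th percentile scaling, quantile normalization, and a variance prior with an intensity trend, was 14 with the mouse as a replicate block (the H2-D1 probe set 1426324_at lost its call) and 17 of 25 among the 17472 brightest probe sets. It ranged from 3 to 18 when single arrays or mice were left out, and the count of higher ones from 0 to 1. All probe sets called lower (4168) ranged from 1285 to 4882 and higher (3046) from 1034 to 3581. The block gave 3492 lower and 2265 higher. With 75th percentile scaling the split was 3553 lower and 4425 higher, and the median fold of all probe sets moved from 0.09 to 0.29. With 1 value per gene, fewer features were tested: 3 of 9 members were lower on the brightest probe set, 7 on the mean of a gene's probe sets and 5 on the most variable one, beside 12.1%, 12.7% and 16.8% of all genes.

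With the actin drop as covariate, limma called 0 member probe sets lower, and 0 lower and 0 higher over the whole array (4552 of the latter and 4 members at an unadjusted p under 0.05). The median SE rose from 0.21 to 0.70. The sign of 25 member folds turned, none past the threshold; the cause was not tested. For H2-K1 they became 1.42, 1.92 and 0.81, for H2-D1 1.23, 1.60, 0.88, 2.87, 1.71, 3.26, 3.87 and 0.011, for B2m 0.51 and 0.65, for Tap1 0.78, -1.30, -0.89 and -0.70, for Tap2 1.15, for Tapbp 1.21, for Pdia3 1.41, for Calr 1.197 and 0.80, and for Canx 2.88, 0.97 and 0.82. Otherwise the sign turned only for 3 uncalled probe sets. H2-D1 1451934_at became 0.17 with 75th percentile scaling and 0.12 without metastases 1 and 3, and ranged from -0.13 to 0.11 over single arrays and mice left out. Pdia3 1445330_at became 0.085 and 0.038 in those 2 settings and ranged from -0.26 to 0.018, and Calr 1417606_a_at ranged from -0.11 to 0.27. With 4 arrays a group the median SE of a member's fold was 0.32, and probe sets under the array median give no exact fold.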
